A study of Homo sapiens with 36 samples.

Results

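The comparison described here set *TXNL1* knockout (KO) HEK293T cells that re-expressed a proteasome-binding mutant of TXNL1 against the same KO cells carrying an empty vector, with no oxidant added. It used 6 of the 36 libraries of the series, 3 of each line, chosen by their labels. RNA sequencing in the series covered 4 lines (vector, WT, D162R R234D and SxxS TXNL1), each given vehicle, arsenite or hydrogen peroxide. HEK293T is a transformed human embryonic kidney line. All the libraries carry the *TXNL1* KO genotype. The mutant line is labelled TXNL1-DR-RD and is the D162R R234D variant of the study's methods, and untreated cells received the solvent DMSO. In the methods, KO cells were grown out from sorted single cells and were complemented with lentivirus, so every library descends from clonally derived KO cells, and a difference made by TXNL1 cannot be told apart from one that arose while a line was made. The methods say that cells in 6-well plates were treated in triplicate. Neither they nor the labels say whether the replicates were independently grown cultures. The p-values therefore measure the spread between libraries of a line, which may be technical.

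TXNL1 is a thioredoxin-like protein of the cytosol and nucleus. Its N-terminal thioredoxin domain carries a pair of redox-active cysteines, and its C-terminal PITH domain docks on the 19S regulatory particle, the part of the proteasome that captures, deubiquitylates and unfolds substrates. PSMD1 is a scaffold of that particle, PSMD4 a ubiquitin receptor and PSMD14 the deubiquitylase that removes ubiquitin chains during degradation. D162R and R234D each replace a charged residue of TXNL1 with one of opposite charge, whereas SxxS replaces both active-site cysteines with serine. The comparison asks which transcripts differ when a form of TXNL1 that is impaired in proteasome binding is returned to KO cells.

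The codons that differ between the variants are shown to place the substitutions in the gene. They were read from the reference *TXNL1* transcript (GENCODE release 44, GRCh38, chromosome 18, minus strand), which has 8 exons and 289 coding codons. Capitals mark the codon or codons that the named variant replaces. The sequences are 5′ to 3′ on the transcript, and the coding sequence of the lentiviral construct itself was not used here.
D162R, in exon 4: gaatctgactgtGATgaacagctgctt
R234D, in exon 6: attgttccacttCGTtatgttaagttt
SxxS, codons 34 and 37 in exon 2: atgagagggTGTgggccaTGTttgaggatt
The window around the R234D codon is continuous in the genome, at chr18:56614445-56614471. The windows around the D162R codon (56616309 to 56618024) and codons 34 to 37 (56626436 to 56638350) are spliced across an intron. Codons 34 and 37, the active-site cysteines, are unaltered in the D162R R234D variant.

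Total counts were 53581560 to 59983836 in the vector libraries and 52442273 to 80658689 in the mutant libraries. At this depth, the 95% interval of the difference lay within a 1.5-fold change for 13951 of the 15618 genes (89.3%) that reached a mean of 1 CPM (counts scaled to a library of 1000000) in one of both groups. Mutant replicate 3 stood apart from replicates 1 and 2. The SD of its log2 CPM around the group median was 0.19 over genes, against 0.10 to 0.13 in the other 5 libraries. Its deviations from the group mean correlated with gene length at a Spearman rho of -0.54 over 12010 genes, against -0.15 to 0.31 in the other 5. Of the 8 marker genes listed for HEK293T, *VIM* was at 445 to 486 CPM in the 6 libraries and *KRT18* at 43.4 to 50.0 CPM, while the neurofilament genes *NEFM* and *NEFH* stayed below 1 CPM. The summed level of 14 marker genes of other cell types was 32.2 to 36.6 CPM in vector and 30.9 to 34.0 CPM in mutant libraries, and none of the 18 genes of these lists that were tested was called.

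*TXNL1* itself (ENSG00000091164, chromosome 18 from 56597209 to 56651600) was examined first, since it defines the lines. Its level was 31.7, 31.6 and 28.6 CPM in the 3 vector libraries and 66.2, 59.3 and 63.2 CPM in the 3 mutant libraries. All the mutant libraries lay above all the vector libraries. The level was 2.05-fold higher in the mutant line, a log2 fold change of 1.04 (SE 0.06, 95% interval 0.92 to 1.16, adjusted p = 1.27e-12). In bulk RNA, fewer expressing cells and less RNA per cell cannot be told apart. Reads from the construct and from the edited chromosomal copies are summed in the deposited gene count. The KO line with vector still gave *TXNL1* reads, which this sum cannot assign to edited or functional transcripts. Exons of *TXNL1* also overlap an annotated gene on the opposite strand. Whether the counting kept reads of that gene apart is not stated. The WT line had 53.1, 52.1 and 58.0 CPM and the SxxS line 55.0, 53.6 and 51.7 CPM, in each case below every mutant library. The mutant exceeded WT by 0.21 on the log2 scale (95% interval 0.09 to 0.33, adjusted p = 0.210) and SxxS by 0.24 (0.12 to 0.35, adjusted p = 0.529), neither of which passed the threshold over all genes.

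**Figure D1:**
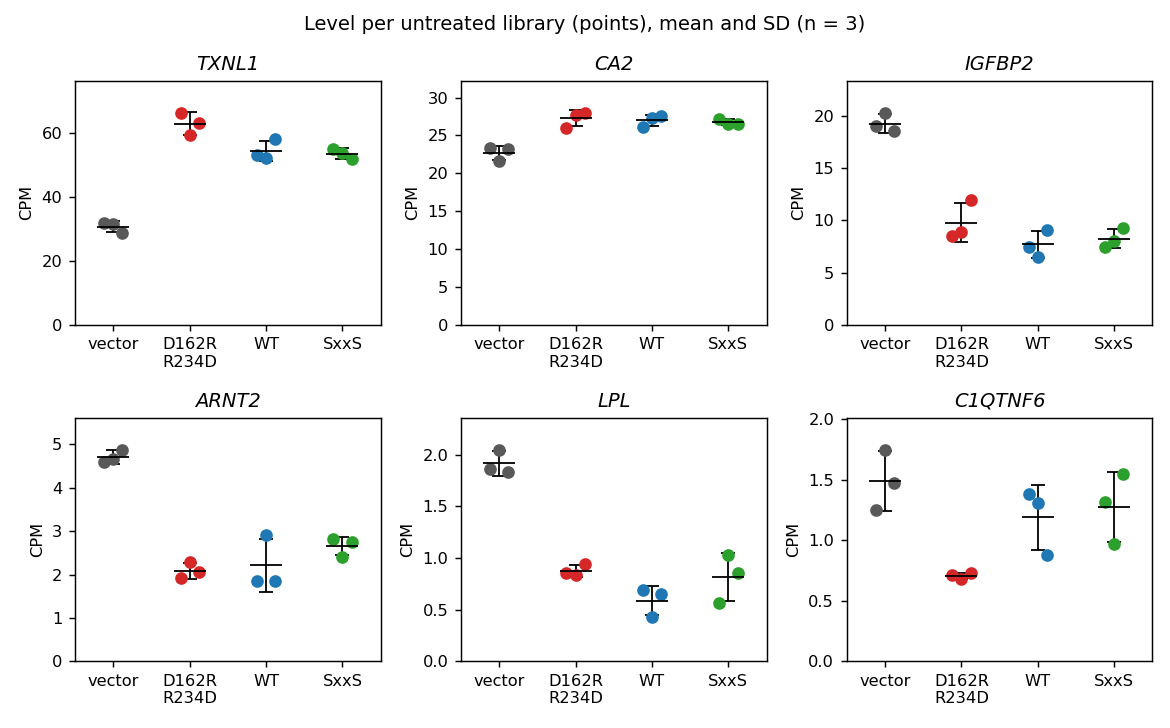
CPM in each untreated library (points) with the mean and SD of 3 replicates (lines) for the 6 genes called between the D162R R234D and vector lines, with the WT and SxxS lines beside them. The 3 mutant points lie apart from the 3 vector points in every panel, by a narrow margin in *CA2* (lowest mutant 26.0 CPM, highest vector 23.3 CPM). Calling genes from these same libraries makes such separation likelier.

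Apart from *TXNL1*, 5 genes were called. At an adjusted p under 0.05, 6 of 22486 genes tested (0.0267%) differed between the lines, 2 higher (0.00889%) and 4 lower (0.0178%) with mutant TXNL1. An unadjusted p under 0.05 was reached by 702 genes (3.12%). The higher gene besides *TXNL1* was *CA2*, which encodes a cytosolic carbonic anhydrase. The lower genes were *IGFBP2*, *ARNT2*, *LPL* and *C1QTNF6*.

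*CA2* (ENSG00000104267, chromosome 8) was at 23.3, 21.6 and 23.2 CPM in vector and at 26.0, 27.7 and 27.99 CPM in mutant libraries. The groups did not overlap, which 5.49% of all tested genes showed in the higher direction, and the difference was small, 120% of the vector level (log2 fold change 0.26, SE 0.05, adjusted p = 0.0414).

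*IGFBP2* (ENSG00000115457, chromosome 2 from 216632828 to 216664436) encodes a secreted protein that binds insulin-like growth factors. Its level was 19.01, 20.3 and 18.5 CPM in vector and 8.55, 8.87 and 11.97 CPM in mutant libraries, with replicate 3 the highest of the mutant libraries and still below every vector library. The mutant level was 50.6% of the vector level (log2 fold change -0.98, SE 0.18, adjusted p = 0.0414).

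*ARNT2* (ENSG00000172379, chromosome 15 from 80404350 to 80597933) encodes a bHLH-PAS partner of transcription factors such as SIM1 and HIF proteins. It was at 4.59, 4.65 and 4.88 CPM in vector and at 1.92, 2.28 and 2.06 CPM in mutant libraries. Both groups were tight, and the mutant level was 44.3% of the vector level (log2 fold change -1.17, SE 0.21, adjusted p = 0.0414). The gene overlaps 3 uncharacterized genes on the opposite strand, and its exons also overlap an annotated gene on the same strand, which counting by strand would not separate. The kit was strand-specific according to the labels, but the sources used here do not state whether counting used the strand.

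*LPL* (ENSG00000175445, chromosome 8) encodes lipoprotein lipase, the secreted enzyme that hydrolyses triglycerides of lipoproteins. It was at 1.86, 2.05 and 1.84 CPM in vector and at 0.855, 0.832 and 0.944 CPM in mutant libraries, which is 45.7% of the vector level (log2 fold change -1.13, SE 0.21, adjusted p = 0.0489). *C1QTNF6* (ENSG00000133466, chromosome 22 from 37180166 to 37199385) encodes a secreted protein with a C1q-like domain. It was at 1.25, 1.75 and 1.47 CPM in vector and at 0.709, 0.681 and 0.732 CPM in mutant libraries (log2 fold change -1.07, SE 0.20, adjusted p = 0.0489). The groups did not overlap for either gene, as for *IGFBP2* and *ARNT2*. Of all tested genes, 5.25% showed this in the lower direction, and calling genes from these same libraries makes such separation likelier. *LPL* and *C1QTNF6* are among the low genes of the table, and *C1QTNF6* overlaps an uncharacterized gene on the opposite strand, ENSG00000235237.

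The calls other than *TXNL1* were close to the threshold. Leaving out 1 of the 6 libraries at a time gave 1 to 3 called genes, 1 or 2 of them among the 6 genes called with all libraries. The added gene was *IRF8*, called without mutant replicate 3 (log2 fold change -1.80). *TXNL1* was called in all 6 of these fits, *CA2* without mutant replicate 1 and *IGFBP2* without mutant replicate 3 (log2 fold change -1.15), while *ARNT2*, *LPL* and *C1QTNF6* were called in none. Over 17 alternative settings the log2 fold change ranged from -1.15 to -0.89 for *IGFBP2*, from -1.24 to -1.09 for *ARNT2*, from -1.19 to -1.08 for *LPL*, from -1.19 to -0.94 for *C1QTNF6* and from 0.23 to 0.30 for *CA2*.

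**Figure D2:**
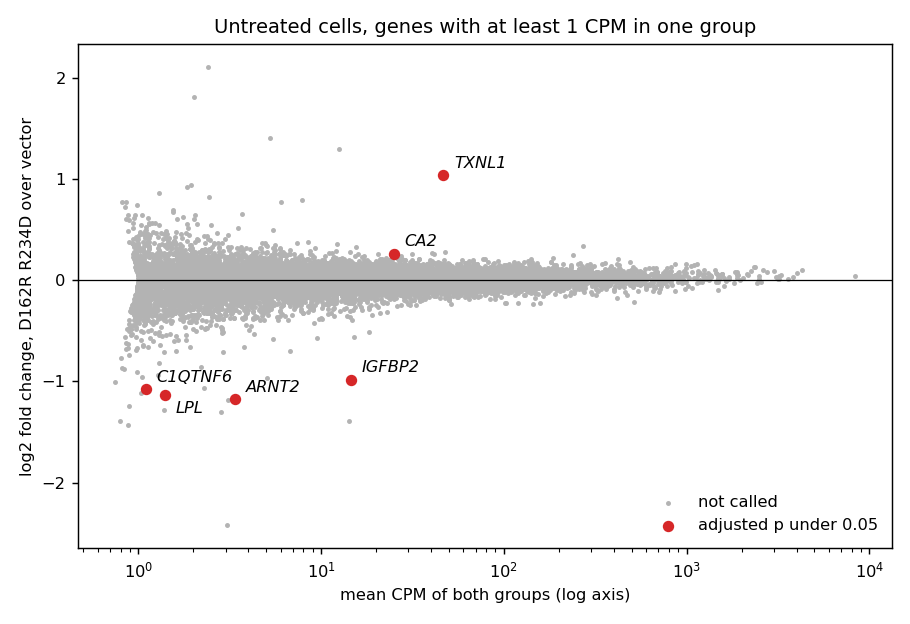
Log2 fold change of D162R R234D over vector in untreated cells against the mean CPM of both groups (log axis) for the 15618 genes with a mean of at least 1 CPM in one group. The 6 called genes (red) are named, and of the 19 genes that differ by 1 or more on the log2 scale, 15 are uncalled grey points.

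Below the called genes in rank came transcripts that missed the threshold. Among genes with at least 1 CPM, the higher ones with the smallest p after *TXNL1* and *CA2* were *ID4*, *ANXA3*, *URI1*, *PHLDA2*, *CHKA* and *PGBD1*, with log2 fold changes of 0.21 to 0.65 and adjusted p of 0.365 to 0.706. *ID4*, an inhibitor of bHLH transcription factors, was at 36.8 ± 1.05 CPM in vector and 44.5 ± 0.86 CPM in mutant libraries (SD, n = 3). *CHKA*, the choline kinase of phosphatidylcholine synthesis, was at 42.8 ± 0.49 and 51.9 ± 1.45 CPM (adjusted p = 0.494). On the lower side, *IRF8*, *LRRC3*, *EYA2* and *BACE2* followed the called genes. *IRF8*, a transcription factor best known from immune cells, was at 1.14, 1.06 and 1.25 CPM in vector and at 0.379, 0.272 and 0.694 CPM in mutant libraries (log2 fold change -1.39, SE 0.30, adjusted p = 0.224).

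The largest fold changes included genes whose groups separated and genes where a single library carried the difference. Of 19 genes with at least 1 CPM whose log2 fold change was 1 or more in size, 4 were called and 15 were not, 4 of these higher and 11 lower. Of the 15 uncalled genes, 8 had groups that did not overlap, against 10.7% of all tested genes, and a large fold change makes that separation likelier. The examples in this paragraph were chosen after their values had been seen. *SERF1B* had the largest positive value (log2 fold change 2.11, SE 0.80), with 0.889, 0.857 and 0.899 CPM in vector and 0.672, 0.908 and 10.1 CPM in mutant libraries. *BOLA2* was at 1.498, 1.61 and 6.15 CPM in vector and at 1.49, 1.35 and 1.58 CPM in mutant libraries. In both, 1 library of the 6 carried the difference. *EIF3CL* was at 8.79, 6.44 and 6.40 CPM in vector and at 11.7, 17.7 and 23.9 CPM in mutant libraries (log2 fold change 1.30, SE 0.48, adjusted p = 1.000), and its groups did not overlap. *SERF1B*, *BOLA2* and *EIF3CL* each have a near-identical copy elsewhere in the genome, so their counts depend on how reads shared with that copy were assigned and are uncertain.

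Genes that the filter on vector libraries left out were checked separately, because a gene silent without TXNL1 could be missed. There were 948 genes with fewer than 10 counts over the vector libraries and at least 10 over the mutant libraries. With the filter applied to either group, 0 of these were called by edgeR and 100 had an unadjusted p under 0.05. These genes entered through their mutant counts alone, which favours a low p in the higher direction. Of all tested genes, 1.22% were higher at that p in edgeR's test. The highest mutant mean among the added genes was 0.70 CPM.

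The proteasome genes were examined as those of the complex that TXNL1 binds. The members of these and the following lists were chosen with earlier results of these data known. The share of all tested genes with a log2 fold change above 0 was 50.4%. Among the 15618 genes with at least 1 CPM, 8395 were above 0. *PSMD1* was at 272, 265 and 262 CPM in vector and at 269, 273 and 250 CPM in mutant libraries (log2 fold change -0.01, 95% interval -0.12 to 0.09). *PSMD4* had a log2 fold change of 0.01 (-0.28 to 0.30), *PSMD14* of 0.09 (-0.05 to 0.24) and *PITHD1*, the other human gene named for its PITH domain, of 0.01 (-0.17 to 0.19). The libraries of both lines overlapped for *PSMD1*, *PSMD4* and *PITHD1*. Those of *PSMD14* were at 140.1, 134 and 134 CPM in vector and 140.4, 143 and 152 CPM in mutant libraries. They thus separated by a narrow margin, and 5.49% of all tested genes separated in the higher direction.

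None of the 14 genes of the 20S core and none of the 19 genes of the 19S regulatory particle was called, and 0 of either had an unadjusted p under 0.05 in edgeR's test. The 20S core holds the proteolytic sites. Its members ran from -0.03 (*PSMA4*) to 0.08 (*PSMB6*), with 12 of 14 above 0 and a median of 0.04. The 19S members ran from -0.02 (*PSMD2*) to 0.13 (*ADRM1*, a ubiquitin receptor), with 16 of 19 above 0 and a median of 0.04, against a median of 0.01 over the genes with at least 1 CPM. The 95% interval lay within a 1.5-fold change for all 33 genes.

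The positive medians were largest in 1 library. The median of the 20S genes relative to the vector mean, on the log2(CPM + 0.1) scale, was -0.05 and 0.01 in mutant replicates 1 and 2 and 0.17 in replicate 3. For the 19S genes the values were 0.00, 0.03 and 0.11. *PSMA7*, an outer-ring subunit, shows the same spread, with 196, 200 and 199 CPM in vector and 173, 191 and 231 CPM in mutant libraries. In treated cells, the median of the 20S genes between the same lines was -0.03 after arsenite and -0.0036 after hydrogen peroxide. That of the 19S genes stayed above 0, at 0.01 after arsenite (12 of 19 above 0) and 0.03 after hydrogen peroxide (14 of 19). Replicate 3 is the library whose deviations follow gene length, and the part of that trend in these medians was not tested.

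**Figure D3:**
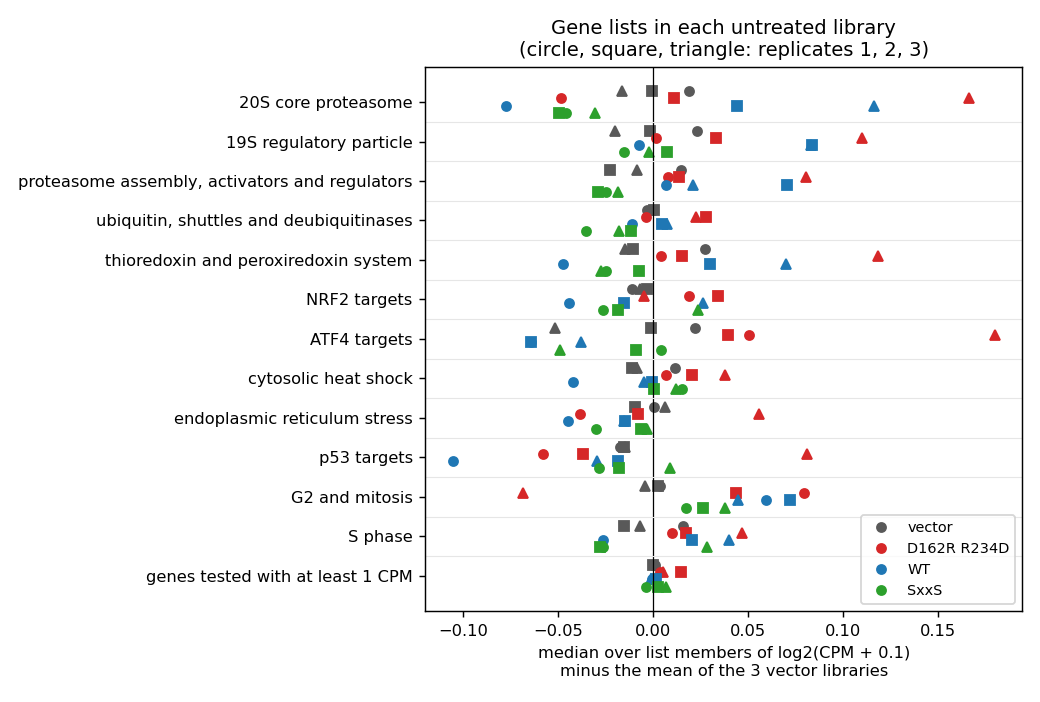
Median over the members of each gene list of log2(CPM + 0.1) minus the mean of the 3 vector libraries, in each of the 12 untreated libraries (colours, lines; shapes, replicates). Mutant replicate 3 (red triangle) lies at 0.17 for the 20S core and 0.18 for ATF4 targets, outside the other 2 mutant replicates, while the median over genes with at least 1 CPM stays within 0.02 of 0 in all 12.

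Assembly factors, activators and regulators of the proteasome behaved likewise. Of 23 genes 22 were tested, 0 were called and 0 had an unadjusted p under 0.05 in edgeR's test, and the median was 0.02 with 12 above 0. The list includes *NFE2L1*, *DDI2* and *NGLY1*, which act in the transcriptional response to impaired proteasomes. *PSMD5*, an assembly chaperone of the 19S base that was singled out after its values were seen, was nearly absent in both lines, with no library above 0.0658 CPM. Of 23 genes for ubiquitin, its shuttles and deubiquitinases, 22 were tested with a median of 0.02 and 16 above 0, and 0 were called or had an unadjusted p under 0.05.

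Thiol redox genes were examined because of the thioredoxin domain. All 29 genes of the thioredoxin and peroxiredoxin list were tested, and 0 were called or had an unadjusted p under 0.05. *TXN*, the main cytosolic thioredoxin, was at 269, 255 and 253 CPM in vector and at 260, 263 and 297 CPM in mutant libraries, which overlap. *MSRB2*, a methionine sulfoxide reductase of mitochondria, was the farthest from 0, at 4.76, 4.72 and 4.61 CPM in vector and 3.62, 3.60 and 4.14 CPM in mutant libraries (log2 fold change -0.31, SE 0.25). Its groups did not overlap, a pattern that 5.25% of all tested genes showed in the lower direction. The median of the list was 0.04 with 23 of 29 above 0, and per mutant library it was 0.00, 0.02 and 0.12, again highest in replicate 3.

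Stress pathways gave no called gene in the comparison with vector. Of 21 NRF2 targets, 18 were tested with a median of 0.02 and 10 above 0. *NQO1*, a quinone reductase, was at 6.45, 6.67 and 7.07 CPM in vector and at 5.97, 5.19 and 5.90 CPM in mutant libraries (log2 fold change -0.24, SE 0.10, adjusted p = 1.000). The lists for cytosolic heat shock (16 tested, median 0.02), endoplasmic reticulum stress (17, median -0.0046), metallothioneins and zinc export (5, median 0.05), p53 targets (16, median -0.01), S phase (16, median 0.03), G2 and mitosis (20, median 0.04) and the interferon response (11, median -0.04) also held 0 called genes in edgeR's test. *HSPA1A*, an inducible heat shock chaperone, was counted at 149, 270 and 300 CPM in vector and 352, 261 and 295 CPM in mutant libraries. Its near-identical copy *HSPA1B* was at 1596, 1413 and 1571 CPM in vector and 1376, 1376 and 1534 CPM in mutant libraries. How reads shared by these 2 genes were assigned is not known, so the spread of *HSPA1A* alone is uncertain. *MKI67*, a proliferation marker, was at 230, 261 and 263 CPM and at 280, 246 and 166 CPM, with replicate 3 the lowest. *MT2A*, a zinc-binding metallothionein, was at 13.5, 12.7 and 12.8 CPM and at 12.7, 15.5 and 19.5 CPM, with replicate 3 the highest. The libraries of the lines overlapped for *HSPA1A*, *MKI67* and *MT2A*. Over these 7 lists, *PLK1*, a mitotic kinase, was the only gene with an unadjusted p under 0.05 (log2 fold change 0.11, SE 0.05).

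ATF4 targets lay furthest from the other stress lists. Of 18 genes 17 were tested, 14 were above 0 and the median was 0.09. The medians of the 3 mutant libraries were 0.05, 0.04 and 0.18, all above the vector libraries at 0.02, 0.00 and -0.05. *PPP1R15A*, a phosphatase subunit that reverses the stress phosphorylation of eIF2α, was at 19.8, 20.05 and 18.5 CPM in vector and at 21.2, 22.6 and 23.9 CPM in mutant libraries (log2 fold change 0.21, SE 0.08). *ASNS*, asparagine synthetase, was at 173, 166 and 168 CPM in vector and at 198, 189 and 189 CPM in mutant libraries (log2 fold change 0.18, SE 0.05). These were the 2 of the 17 genes whose mutant libraries all lay above the vector libraries, against 5.49% of all tested genes, and neither passed the threshold (adjusted p = 1.000 for both).

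The partners of the called secreted proteins were listed to see whether they moved with them. In the insulin-like growth factor axis, 17 of 21 genes were tested and *IGFBP2* alone was called or had an unadjusted p under 0.05. *IGFBP5* was at 16.8, 16.1 and 15.2 CPM in vector and at 16.9, 15.9 and 18.02 CPM in mutant libraries (log2 fold change 0.08, SE 0.13), and the receptor gene *IGF1R* had -0.03 (SE 0.15). In the lipoprotein lipase list, 13 of 19 genes were tested and *LPL* alone was called. Of the 13, 4 had all mutant libraries below all vector libraries (*LPL*, *ANGPTL4*, *ANGPTL8* and *CD36*), against 5.25% of all tested genes. In the other direction, 2 had all mutant libraries above all vector libraries, *LMF1* among them, against 5.49% of all tested genes. *CD36*, *ANGPTL4* and *ANGPTL8* were named after their values were seen. *CD36*, a fatty acid transporter, was at 0.198, 0.185 and 0.294 CPM in vector and at 0.0977, 0.0303 and 0.116 CPM in mutant libraries (log2 fold change -1.46, SE 0.50, adjusted p = 1.000). Besides *LPL*, *CD36* and *LMF1* had an unadjusted p under 0.05, in opposite directions. *LMF1*, which encodes a factor needed for lipase maturation, was at 1.66, 2.35 and 1.78 CPM in vector and at 2.90, 2.36 and 2.60 CPM in mutant libraries (log2 fold change 0.44, SE 0.15, adjusted p = 1.000). *GPIHBP1*, the endothelial anchor of the enzyme, had 0 counts in all 6 libraries.

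The other complemented lines show whether a difference from vector was particular to the mutant. Each of the 3 complemented lines is set against the same vector libraries, so the values stand side by side and are not independent. *IGFBP2* had log2 fold changes from vector of -0.98 with the mutant, -1.32 with WT and -1.22 with SxxS. *LPL* had -1.13, -1.68 and -1.23, *ARNT2* had -1.17, -1.11 and -0.82, and *CA2* had 0.26, 0.25 and 0.24, in the same order. *C1QTNF6* had -1.07, -0.34 and -0.23. Its level was 1.38, 1.31 and 0.878 CPM in WT and 1.31, 0.965 and 1.54 CPM in SxxS libraries, all above the mutant libraries. The direct difference of mutant and WT was -0.74 (95% interval -1.16 to -0.31, adjusted p = 0.240) and of mutant and SxxS -0.84 (-1.26 to -0.43, adjusted p = 0.529), and neither was called.

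Compared directly with WT TXNL1 in untreated cells, 8 genes were called (0.0356%), 7 higher and 1 lower with the mutant. *ASNS* was at 133, 150 and 137 CPM in WT, below every mutant and every vector library. It was 0.46 higher on the log2 scale with the mutant than with WT (SE 0.05, adjusted p = 4.69e-05). ENSG00000284707, which overlaps *ASNS* on the same strand and cannot be told apart from it here, gave 0.46 as well. *EMILIN2*, which encodes an extracellular matrix glycoprotein, was at 49.0, 53.1 and 49.4 CPM in mutant and at 71.8, 74.6 and 75.2 CPM in WT libraries (log2 fold change -0.55, SE 0.07, adjusted p = 4.69e-05).

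The level of *EMILIN2* in the mutant line overlapped that of vector (52.9, 50.9 and 52.8 CPM). *LTBP4*, which encodes a binding protein of latent TGFβ, was at 36.6, 40.8 and 43.6 CPM in mutant and 30.1, 27.2 and 28.9 CPM in WT libraries (log2 fold change 0.49, adjusted p = 0.00342). *INSIG1*, a sterol-regulated brake on cholesterol synthesis, was at 90.6, 86.4 and 88.7 CPM in mutant and 72.7, 70.7 and 68.3 CPM in WT libraries (0.33, adjusted p = 0.0127). *MFSD11* was 0.37 higher (adjusted p = 0.0244), and it overlaps *SRSF2* on the opposite strand. For *ASNS*, *LTBP4* and *INSIG1*, each WT library was below every vector library, and for *EMILIN2* each was above.

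Against SxxS TXNL1, 3 genes were called (0.0133%): *ASNS* and ENSG00000284707 higher and *EMILIN2* lower with the mutant. *ASNS* was at 152, 150 and 158 CPM in SxxS libraries, a log2 difference of 0.32 (SE 0.05, adjusted p = 0.0240). *EMILIN2* was at 64.8, 63.3 and 70.01 CPM (-0.39, SE 0.07, adjusted p = 0.0240). The mutant line therefore stood above both other complemented lines for *ASNS* and below both for *EMILIN2*. The comparison with WT depends on the spread of libraries that are not part of it. Without WT arsenite replicate 1 and WT hydrogen peroxide replicate 2, which stand apart in the series, 861 genes were called against WT, 56 against SxxS and 17 against vector. The count against WT was 31 without mutant replicate 1, 5 without mutant replicate 2, 3 without mutant replicate 3, and 3 and 5 without WT replicates 2 and 3. That against SxxS was 0 in edgeR's test when any of its 6 libraries was left out, with 627 to 944 genes at an unadjusted p under 0.05. When the 6 libraries of a comparison were fitted alone, 10 genes were called against WT, 3 of them among the 8 (*ASNS*, ENSG00000284707 and *EMILIN2*), and 1 gene against SxxS, none of the 3.

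The treated libraries of the same lines did not enter the untreated fold changes, although they shared in the estimate of spread behind all p-values. *IGFBP2* was at 23.2, 21.1 and 20.98 CPM in vector and 9.90, 10.8 and 11.3 CPM in mutant libraries after arsenite (log2 fold change -1.02, adjusted p = 0.0207). After hydrogen peroxide it was at 17.1, 17.7 and 18.6 CPM and 8.83, 9.31 and 10.4 CPM (-0.91, adjusted p = 0.0697). The groups did not overlap in either treatment. The share of all tested genes that separated was counted in untreated cells only (5.49% higher, 5.25% lower). The separation of *IGFBP2* here and of *CA2* below therefore has no matched share. Within arsenite, 5 genes were called (0.0222%), namely *TXNL1*, *ARNT2*, *IGFBP2*, *LPL* and *EYA2*. Within hydrogen peroxide, 4 were called (0.0178%), namely *TXNL1*, *EYA2*, *ARNT2* and *BACE2*. *CA2* had 0.21 after arsenite (adjusted p = 0.303) and 0.22 after hydrogen peroxide (adjusted p = 0.138), with no overlap between the groups in both. *C1QTNF6* had -0.49 and -0.59, with an adjusted p of 1.000 in both.

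**Figure D4:**
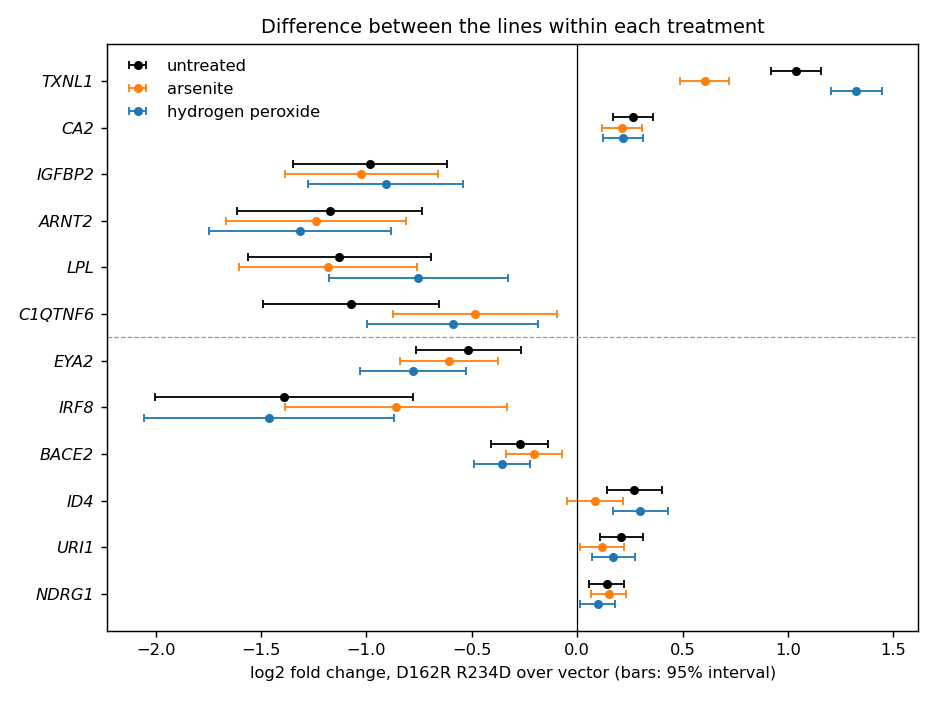
Log2 fold change of D162R R234D over vector with its 95% interval within untreated, arsenite-treated and peroxide-treated cells, for the 6 genes called in untreated cells (above the dashed line) and 6 further genes called when the treatments are averaged. The points of a gene lie on one side of 0 in all 3 treatments. Choosing the 6 further genes by the average of these treatments favours this. The arsenite interval of *ID4* (-0.05 to 0.22) crosses 0.

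Across genes with at least 1 CPM other than *TXNL1*, 179 were higher and 211 lower with the mutant at an unadjusted p under 0.05 in untreated cells. Over all tested genes, 1.22% were higher and 1.9% lower by that criterion. Of the higher genes, 71.5% had the same direction after arsenite and 70.9% after hydrogen peroxide. Of the lower genes, 73.0% and 69.7% did. Over all 15617 genes the shares were 56.0% and 59.3%. The untreated and treated log2 fold changes correlated across these genes with a Pearson r of 0.21 for arsenite and 0.16 for hydrogen peroxide. Genes are not independent replicates, and all the points share the same pair of lines.

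Averaged over the 3 treatments, 9 libraries against 9, 30 genes were called (0.133%), 6 higher and 24 lower with mutant TXNL1. All 30 had the same direction in each treatment, and they include the 6 genes called in untreated cells, both of which the choice of genes by their average over these libraries favours. Without mutant untreated replicate 1, 19 genes were called. Besides *TXNL1* and *CA2*, *ID4*, *URI1*, *NDRG1* and *C19orf12* were higher, the last named beyond the rule for named genes. *URI1*, a prefoldin-like protein, was at 133, 129 and 133 CPM in vector and at 154, 155 and 147 CPM in mutant libraries without treatment (average log2 fold change 0.17, SE 0.03, adjusted p = 0.00666). *NDRG1*, known as a gene induced by hypoxia and stress, was at 249, 257 and 254 CPM and at 271, 285 and 282 CPM (average 0.13, adjusted p = 0.00919).

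Among the lower genes, *EYA2*, a phosphatase and transcriptional coactivator of development, was at 3.37, 2.94 and 3.76 CPM in vector and at 2.19, 2.33 and 2.54 CPM in mutant libraries without treatment. After arsenite it was at 8.80, 8.81 and 7.91 CPM in vector and at 5.71, 5.94 and 5.10 CPM in mutant libraries (average log2 fold change -0.63, SE 0.07, adjusted p = 3.17e-06). *IRF8* had an average of -1.24 (SE 0.16, adjusted p = 8.70e-05). *C1QTNF6* (-0.72) and its opposite-strand neighbour ENSG00000235237 (-1.84), named because of that overlap, were both among the 24. ENSG00000235237 was near the floor, with untreated means of 0.10 CPM in vector and 0.020 CPM in mutant libraries. Of the 30 genes, 0 were called by edgeR between the untreated mutant and WT lines, and 8 had an unadjusted p under 0.05 there.

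*TXNL1* was the gene whose difference between the lines changed with treatment, the only one of 22486 (0.00445%) at an adjusted p under 0.05 (adjusted p = 0.000123 for both oxidants together), while 561 genes (2.49%) had an unadjusted p under 0.05. After arsenite, it was at 71.9, 67.9 and 68.2 CPM in vector and 108, 102 and 106 CPM in mutant libraries. After hydrogen peroxide, it was at 31.2, 30.8 and 32.2 CPM in vector and 75.6, 78.5 and 82.0 CPM in mutant libraries. The log2 fold change was 1.04 without treatment, 0.60 after arsenite and 1.32 after hydrogen peroxide. As a difference in CPM, the mutant line exceeded vector by 32.2, 36.1 and 47.3 CPM, so the order of arsenite and untreated cells depends on the scale.

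A shift by chromosome ran through the whole comparison and was noticed after the data had been seen. Among 12010 genes with a mean of at least 5 CPM, the 114 genes of chromosome 21 had a median log2 fold change of -0.09 in untreated cells, and the median level fell by 5.92%, while 90.4% of them were below 0, against 44% of all 12010. The median was -0.10 after arsenite and -0.10 after hydrogen peroxide. In single libraries it was -0.11 to -0.09 in the 9 mutant libraries and -0.01 to 0.01 in the 9 vector libraries, with no overlap. It was -0.08 with WT and -0.09 with SxxS against the same vector libraries, and 0.00 between the mutant and WT. On this chromosome it was thus the vector line that stood apart from the other 3 lines, and the comparison cannot tell a fall in the mutant from a higher level in vector. The median stayed at -0.09 without mutant replicate 3 and was -0.11 with total counts in place of TMM.

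The shift was not limited to a stretch of the chromosome, since the median was below 0 in all 6 intervals into which its genes were divided, from -0.03 to -0.12. *BACE2*, *GET1* and *LRRC3*, all on chromosome 21 and *GET1* outside the rule for named genes, were among the 30 genes called over the treatments, and that chromosome holds 1.06% of the genes tested. In untreated cells their log2 fold changes from the same vector libraries were -0.33 to -0.25 with WT and -0.31 to -0.27 with SxxS. *BACE2*, a protease related to β-secretase, was at 14.4, 15.4 and 15.2 CPM in vector and at 12.8, 13.0 and 11.4 CPM in mutant libraries without treatment. *LRRC3* was at 10.5, 10.1 and 10.6 CPM and at 7.79, 7.57 and 7.94 CPM. Chromosomes 19 (median 0.07) and 11 (median 0.05) lay above the 20 others, which ran from -0.01 to 0.01. The value of chromosome 19 was -0.02, 0.06 and 0.14 in mutant replicates 1, 2 and 3, and its median was 0.02 without replicate 3. Between the same lines its median was 0.01 after arsenite and 0.06 after hydrogen peroxide. Against the untreated vector libraries, it was -0.02 with WT and 0.05 with SxxS. Chromosome 11 kept a median of 0.04 without replicate 3, after arsenite and after hydrogen peroxide. Against the same untreated vector libraries, chromosome 11 was at 0.03 with WT and 0.04 with SxxS.

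**Figure D5:**
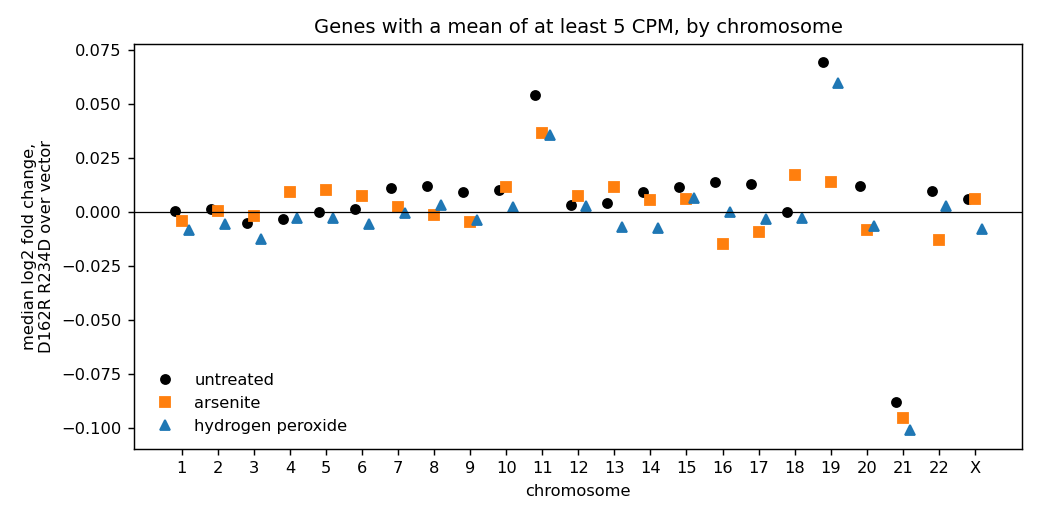
Median log2 fold change of D162R R234D over vector for genes with a mean of at least 5 CPM, by chromosome, in untreated, arsenite-treated and peroxide-treated cells. Chromosome 21 lies at -0.09 to -0.10 in all 3, chromosomes 11 and 19 lie above 0, and the other 20 lie within 0.02 of 0.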

How the data were processed

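RNA of 36 libraries was sequenced, and the authors deposited raw counts per gene for each library, made by aligning paired reads to GRCh38 with qAlign (QuasR), without normalization or pooling of replicates. The submitters' processing notes name DESeq2. The annotation release, the strand setting and the counting of mates are not given in the sources used here. From these counts, 22486 of 61587 genes with at least 10 counts over the 3 untreated vector libraries were kept, as in the study's methods, scaled by TMM and fitted with one mean per group over all 36 libraries in edgeR 4.0.16 (limma 3.58.1, R 4.3.3). Robust quasi-likelihood F tests were adjusted by Benjamini-Hochberg over all tested genes and called at an adjusted p under 0.05. CPM use TMM-scaled library sizes, and intervals are 95% intervals of the fit. The biological coefficient of variation was 12.4%. Gene positions came from GENCODE release 44 (61369 identifiers matched), which may not be the authors' release, and gene overlaps were read from it.

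Named genes were *TXNL1*, its proteasome contacts and *PITHD1*, all called genes, the 8 smallest p in each direction at 1 CPM or more, 2 members per list by size, and up to 5 called genes per direction elsewhere. Members, lists and tests were chosen with earlier results of these data known. Alternatives were other scalings, filters and tests, DESeq2 1.42.0, halved counts, a replicate block and each library left out. The code was tested on simulated counts. No pair of replicates was a duplicate, since chi-square per degree of freedom was 3.11 to 31.4.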

Additional observations from a re-analysis of the deposited data

Results flagged for a closer look

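*TXNL1* met the criterion that an effect differs between groups, since its difference between the mutant and vector lines changed with treatment (adjusted p = 0.000123 in edgeR's quasi-likelihood test of both interaction terms). The log2 fold change was 1.04 without treatment, 0.60 after arsenite and 1.32 after hydrogen peroxide, and mutant libraries lay above vector libraries in all 3.

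For 8 genes, the difference from vector was itself different between the D162R R234D and WT lines in untreated cells, by the direct test of the 2 lines. The log2 difference, mutant minus WT, was 0.46 for *ASNS*, 0.46 for ENSG00000284707, -0.55 for *EMILIN2*, 0.49 for *LTBP4*, 0.33 for *INSIG1*, 0.37 for *MFSD11*, 0.44 for *TSC22D3* and 0.48 for *ZNF503*. *TSC22D3*, a glucocorticoid-induced leucine zipper gene, and *ZNF503* lie outside the rule for named genes and are given because all called genes are. For 3 of the 8, the mutant also differed from SxxS, by 0.32 for *ASNS*, 0.32 for ENSG00000284707 and -0.39 for *EMILIN2*. *ASNS* and ENSG00000284707 overlap on the same strand and count as 1 signal.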

How the results depend on the processing

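Between mutant and vector without treatment, 6 genes were called, against 2 with total counts, 10 with DESeq2, 329 with limma voom and quality weights, 2 with no filter, 3 when the 6 libraries were fitted alone, 17 without the 2 WT libraries that stand apart, 2 with a replicate block, and 1 to 3 leaving out a library. *TXNL1* was called in all 17 alternatives (log2 fold change 0.98 to 1.08), *CA2* in 8, *IGFBP2* in 10, *ARNT2* in 10, *LPL* in 7 and *C1QTNF6* in 6. For mutant against WT (8) the counts were 19 with total counts, 60 with DESeq2, 1128 with voom, 5 with no filter, 10 fitted alone (3 of the 8 among them), 861 without the 2 WT libraries and 3 to 31 leaving out a library. For SxxS (3) they were 7 with DESeq2, 543 with voom, 0 with no filter in edgeR (991 at an unadjusted p under 0.05), 1 fitted alone (0 of the 3), 56 without the 2 WT libraries, 0 with the block (790 unadjusted) and 0 to 0 leaving out a library (627 to 944 unadjusted). Averaged over treatments (30) they were 59 with DESeq2, 703 with voom, 16 with no filter, 113 fitted alone, 218 without the 2 WT libraries and 19 to 27 leaving out a library. The treatment difference (1) gave 5 with DESeq2, 96 with voom and 2 without the 2 WT libraries. The cause of these changes was not tested.

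Replicate numbers shared by the lines did not pair the libraries (correlations of same-numbered deviations -0.08, 0.14 and -0.16 over 10246 genes). Only uncalled genes changed sign. They were near 0 or low, except *MKI67*, at -0.12 with all libraries and 0.061 without mutant replicate 3. With voom, *PSMD1* was 0.024, *PSMD4* -0.038, *IFITM1* -0.020, *COL1A2* 1.02 and *EMILIN2* 0.0021. With total counts, *PSMD4* was -0.010 and *PITHD1* -0.011, and with no filter *INSIG1* was 0.0045. Leaving out a library gave *PSMD1* -0.036 to 0.018, *PSMD4* -0.076 to 0.058, *PITHD1* -0.012 to 0.033, *PSMB6* -0.017 to 0.14, *MT1F* -0.056 to 0.25, *MKI67* -0.29 to 0.061, *ISG15* -0.43 to 0.061, *COL1A2* -1.60 to 0.34 and *INSIG1* -0.055 to 0.023. With 3 libraries a line, differences under about 0.25 on the log2 scale, the median width of the interval to either side, were not resolved for a typical gene.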
